A study of Mus musculus with 6 samples.

Results

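The regions described are a pair of KRAB zinc finger gene clusters of the mouse genome, taken by position as chr2:175000001-177500000 and chr4:145000001-147000000 of genome build mm9. Together they held 27914 of the 20782144 CpG sites listed for the whole genome, 14507 on chromosome 2 and 13407 on chromosome 4. A site was kept with at least 5 reads in every line compared and at most 80 reads in the SETD2 knockout line, 40 in DNMT3B1 cells and 45 in DNMT3A2 cells, and 1510 of the 27914 sites passed in all 3 lines. The 2 Mb on each side of each cluster, its flanks, held 81344 listed sites, of which 34098 were kept.

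KRAB zinc finger proteins form a large and fast-evolving family of transcriptional repressors in vertebrates. The KRAB domain recruits the corepressor TRIM28 and with it histone methyltransferases, and the array of zinc fingers at the other end of the protein reads DNA, often that of retrotransposons. New genes of the family arise mostly by local duplication, so clusters such as these hold many near-identical copies of a gene, its promoter and its exons.

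Whole-genome bisulfite sequencing had been applied to embryonic stem cells of the mouse without endogenous DNMT1, DNMT3A and DNMT3B, the enzyme that maintains methylation and those that set it de novo. The first of the 3 lines used here was of the same triple-null genotype with SETD2 knocked out as well and expressed DNMT3B1, the second expressed DNMT3B1 with SETD2 intact, and the third expressed DNMT3A2, a short isoform of DNMT3A. SETD2 trimethylates lysine 36 of histone H3 along transcribed genes, and DNMT3B carries a domain that binds this mark. The labels name 2 runs of each line but neither cultures nor clones, so each line was 1 library and no p-value between lines was computed; the intervals below hold counting error, or counting error and the variation between neighbouring CpGs, and no error between cultures.

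The cells had been grown on feeder cells or gelatine, and which of these each library came from is not given in the sources used here. No expression was measured, so the labelled cell type could not be checked against markers, and zinc finger protein levels in these cells are not known from these data. The reads at CpG sites numbered 200947834 in the SETD2 knockout line, 188661576 in DNMT3B1 cells and 200364080 in DNMT3A2 cells. The knockout line was listed only at sites with at least 10 reads.

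Promoters show how alike the copies are. RefSeq promoters of genome build GRCm38.p6, each 250 bases before and 50 after a gene's start, were placed among the listed mm9 sites by the spacing of their CpGs, which needs no genome sequence. Each was sought only in the orientation of its own gene, so the counts of positions leave out inverted copies. Of 20355 promoters with at least 5 CpGs, 18148 fitted exactly 1 position, and 99.99% of these lay on the chromosome that RefSeq gives. In the clusters, 9 genes of chromosome 2 and 5 of chromosome 4 fitted at least 1 position, and most of them fitted several. The promoters below are 3 that fitted several positions and had no read, and the 2 that had more than 1 read, chosen after their values were seen; CpGs are in capitals.

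Zfp968: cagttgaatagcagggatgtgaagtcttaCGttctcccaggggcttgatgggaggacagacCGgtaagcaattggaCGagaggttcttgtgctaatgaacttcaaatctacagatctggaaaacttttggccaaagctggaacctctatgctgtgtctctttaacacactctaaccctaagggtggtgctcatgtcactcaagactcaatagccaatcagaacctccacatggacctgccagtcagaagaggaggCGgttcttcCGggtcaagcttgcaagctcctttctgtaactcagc
Zfp973: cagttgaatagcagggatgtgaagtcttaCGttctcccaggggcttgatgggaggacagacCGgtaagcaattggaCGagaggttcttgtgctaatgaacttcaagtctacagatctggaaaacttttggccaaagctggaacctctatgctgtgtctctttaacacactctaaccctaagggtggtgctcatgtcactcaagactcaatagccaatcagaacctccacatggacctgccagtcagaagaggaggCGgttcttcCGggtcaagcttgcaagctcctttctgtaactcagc
Zfp600: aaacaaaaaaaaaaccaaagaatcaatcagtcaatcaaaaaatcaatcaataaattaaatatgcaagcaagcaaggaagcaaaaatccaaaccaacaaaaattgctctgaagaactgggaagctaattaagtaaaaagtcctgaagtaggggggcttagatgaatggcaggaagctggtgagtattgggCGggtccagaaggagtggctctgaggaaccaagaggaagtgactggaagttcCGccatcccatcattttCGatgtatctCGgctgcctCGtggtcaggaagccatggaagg
Zfp982: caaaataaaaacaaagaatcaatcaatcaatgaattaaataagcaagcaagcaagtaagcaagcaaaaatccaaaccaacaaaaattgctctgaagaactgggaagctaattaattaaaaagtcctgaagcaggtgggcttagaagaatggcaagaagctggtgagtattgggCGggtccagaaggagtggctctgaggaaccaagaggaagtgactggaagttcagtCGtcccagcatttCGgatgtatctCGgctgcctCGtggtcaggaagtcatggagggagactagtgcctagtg
Gm13212: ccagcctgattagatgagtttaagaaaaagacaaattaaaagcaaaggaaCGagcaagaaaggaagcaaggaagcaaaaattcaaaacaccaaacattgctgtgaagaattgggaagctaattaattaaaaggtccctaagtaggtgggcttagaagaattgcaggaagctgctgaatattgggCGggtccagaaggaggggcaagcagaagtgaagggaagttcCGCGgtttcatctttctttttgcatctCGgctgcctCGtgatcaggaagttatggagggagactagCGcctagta

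The Zfp968 and Zfp973 promoters of chromosome 2 differ at 1 of 300 bases, and those of Zfp966 and Zfp967 at 0. The 5 CpGs of Zfp968 fitted 5 positions of the cluster, the first at chr2:175197687-175197986, and those of Zfp973, Zfp965, Zfp967 and Gm14295 fitted the same 5 places. Zfp966, identical to Zfp967 but on the other strand, fitted 4 further positions, so copies of this promoter lie in both orientations. On chromosome 4 the promoters of Zfp600 and Rex2, another zinc finger gene, differ at 4 of 300 bases and fitted the same 4 positions. No CpG at any of these places on either chromosome had a read in the DNMT3B1 or DNMT3A2 line or was listed for the SETD2 knockout line. Over all promoter positions of the clusters, 12 of 13 on chromosome 2 and 5 of 7 on chromosome 4 were without a listed read in all 3 lines, and the 1 covered position on chromosome 2, Gm35319, had 1 read in the DNMT3A2 line alone. Most promoter positions placed in the flanks had reads in all 3 lines, but the share without reads was not computed for the flanks or the whole genome.

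Gm14440 at chr2:175100376-175100675, with 5 CpGs, and Gm13165 at chr4:146207355-146207654, with 18 CpGs, each fitted 1 position in the orientation searched and had no read. For Gm14440 that was not the only copy: its sequence is that of Gm14288 shifted by 1 base. Gm14288, on the other strand, fitted 2 other positions of the cluster. Inverted copies of Gm13165 were not searched for. Only the promoters of Zfp982 and Gm13212, both on chromosome 4 and each with 1 position, had more than 1 read. At Zfp982, at chr4:146866276-146866575 on the plus strand, all 5 CpGs were kept. Its reads were methylated at 3.30% in the SETD2 knockout line (3 of 91, exact 95% interval 0.685% to 9.33%), 7.14% in the DNMT3B1 line (7 of 98, 2.92% to 14.2%) and 10.2% in the DNMT3A2 line (9 of 88, 4.78% to 18.5%). The 3 intervals overlapped. At Gm13212, at chr4:145174853-145175152 on the plus strand, 3 of 7 CpGs were kept. Its methylated reads were 0 of 52 in the SETD2 knockout line, which allows up to 6.85%, 1 of 80 in the DNMT3B1 line, a level of 1.25%, and 0 of 118 in the DNMT3A2 line, which allows up to 3.08%.

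In the annotation of GRCm38.p6, used only for names and order, 81 genes lie between Edn3 and Sycp2, the genes that frame the chromosome 2 cluster, and 33 of them are protein-coding. Of the 81, 9 are named zinc finger genes. Between Tnfrsf8 and Miip, which frame the chromosome 4 cluster, lie 82 genes, of which 19 are protein-coding, 56 are pseudogenes and 17 are named zinc finger genes. These counts follow neighbouring genes and so reach somewhat past the limits of the clusters.

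The first comparison asked how much of the clusters the libraries described. Of the listed sites, 5.41% were kept in all 3 lines in the clusters (exact 95% interval 5.15% to 5.68%), against 41.9% in the flanks. The cluster on chromosome 2 kept 125 sites, or 0.862% (0.718% to 1.03%), and that on chromosome 4 kept 1385, or 10.3% (9.82% to 10.9%). All autosomes outside the clusters kept 35.6%. In windows of 250 kb, 10 of 10 windows of the chromosome 2 cluster and 5 of 8 of the chromosome 4 cluster kept under 10% of their sites, against 2 of 16 and 3 of 16 flank windows; over all 9607 autosomal windows the share was 21.3%.

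On chromosome 2, 6 of 10 windows kept no site at all, as did 39 of the 9607 autosomal windows. A stretch of 1.85 Mb, chr2:175004039-176856634, held 10629 listed sites and no kept one. Of the 125 kept sites, 120 lay to the right of it and 5 to its left. On chromosome 4 the longest such stretch measured 0.247 Mb with 1180 listed sites. Its windows ranged between 0.566% and 30.2% of sites kept, and the last window, at the right end, was the highest. The left flank of the chromosome 4 cluster also kept few sites, 18.2%, against 53.1% in its right flank.

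**Figure D1:**
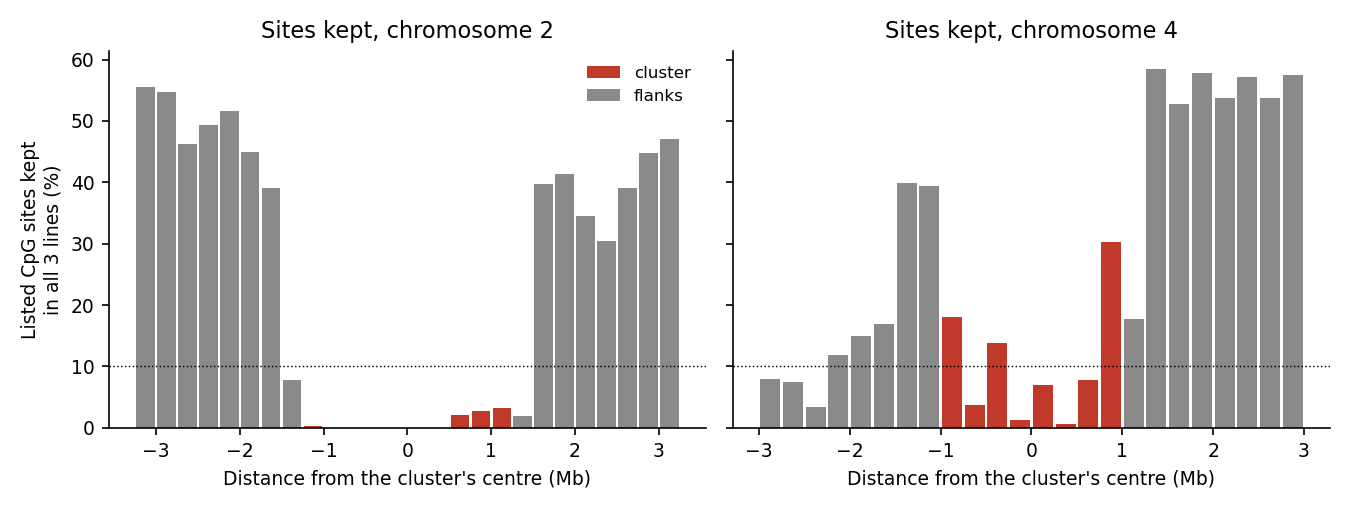
Share of listed CpG sites kept in all 3 lines (y axis, %) in windows of 250 kb by distance from the centre of each cluster (x axis, Mb), with cluster windows in red, flank windows in grey and a dotted line at 10%. The 10 windows of the chromosome 2 cluster lie between 0% and 3.26%, and the chromosome 4 cluster is uneven, between 0.566% and 30.2%.

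Most of the loss was a lack of reads. In the DNMT3B1 line, 91.3% of listed sites of the chromosome 2 cluster and 71.6% of those of the chromosome 4 cluster had no read, against 14.5% in the flanks. In the DNMT3A2 line the shares were 90.8% and 71.3%, against 13.8% in the flanks. The SETD2 knockout line did not list 98.3% and 85.4% of sites in the clusters, against 47.7% in the flanks, a share that also holds sites below its minimum of 10 reads. Requiring only the DNMT3B1 and DNMT3A2 lines raised the kept share to 2.27% on chromosome 2 and 14.2% on chromosome 4, against 62.0% in the flanks.

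Repeated sequence was visible from CpG positions alone. A site was counted as repeated where the spacing of the run of 7 CpGs around it occurred elsewhere in the genome as well. The match had to be exact and in the same direction, so inverted or altered copies were counted among the other sites. Such sites made up 63.1% of the chromosome 2 cluster and 39.3% of the chromosome 4 cluster, against 5.31% of the flanks and 6.52% of the autosomes outside. Of the repeated sites, 0.0766% on chromosome 2 and 1.56% on chromosome 4 were kept, against 2.21% and 16.0% of the other sites of the same clusters. The other sites of the flanks were kept at 43.9%, so both clusters also kept few of their sites that were not repeated by this measure. How the authors treated reads that fit several places is not given in the sources used here, and its part in these shares was not tested.

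**Figure D2:**
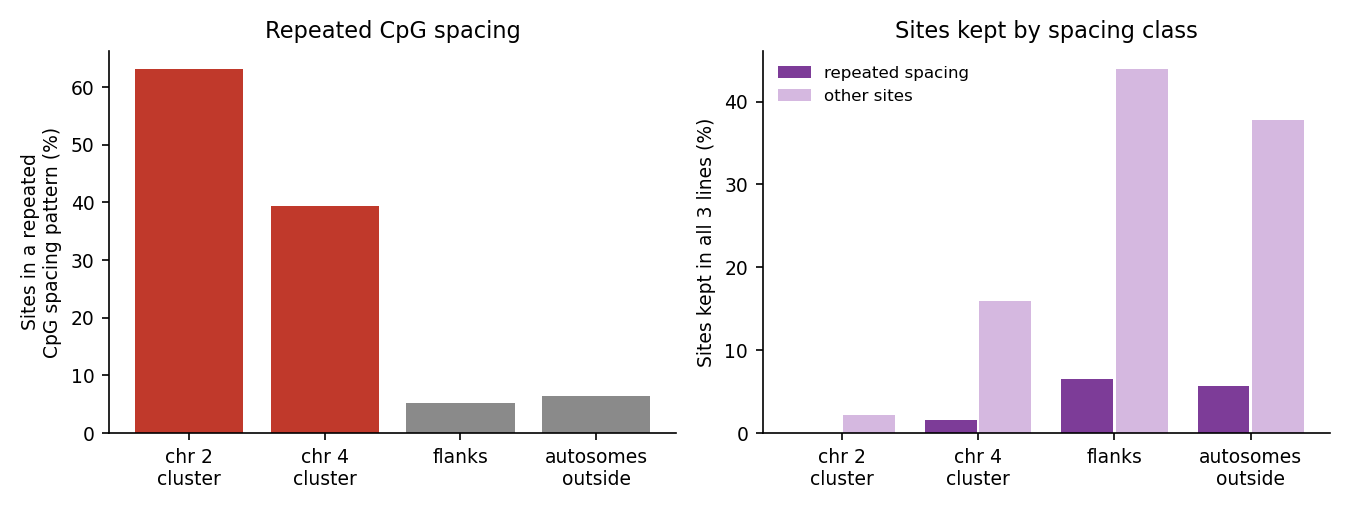
Left, share of listed sites whose CpG spacing pattern of 7 sites occurs more than once in the genome (%); right, share of repeated and of other sites kept in all 3 lines (%), for the clusters, the flanks and the autosomes outside. Repeated sites reach 63.1% and 39.3% of the clusters, and fewer of them than of other sites were kept in each region shown.

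Listed sites of the chromosome 2 cluster were often 84 bp apart. As background, a zinc finger and its linker span 28 codons, or 84 bp, so a CpG at a fixed place in each finger would recur at that distance along an array; whether the pairs counted here lie in zinc finger exons was not tested. Pairs of listed sites exactly 84 bp apart numbered 40.3 per 1000 sites in the chromosome 2 cluster, 3.60 times the median of 11.2 at the other distances between 60 and 110 bp, and ranked first of 51 distances. At 168 and 252 bp the cluster had 39.6 and 30.3 pairs per 1000 sites, against 19.3 and 18.1 in its flanks. Chains of 5 or more sites spaced by 84 bp numbered 32 in this cluster, with 14 sites in the longest. They made up 10.4% of the 308 such chains on the autosomes, while the cluster held 0.0732% of the listed sites.

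The flanks of the chromosome 2 cluster had 12 such chains, and 84 bp ranked first there too, at 19.7 pairs per 1000 sites and 1.10 times the median of the other distances. The chromosome 4 cluster showed no such peak. It had 23.0 pairs per 1000 sites at 84 bp, against a median of 26.1 at the other distances, which placed 84 bp at rank 48 of 51, and it had 0 chains of 5 or more sites. Of the 326 sites in chains on chromosome 2, 3 were kept in all 3 lines, or 0.920%, close to the 0.862% of all listed sites of the cluster. A read in the DNMT3B1 line was present at 27 of them, or 8.28%, against 8.71% of all sites of the cluster, and a read in the DNMT3A2 line at 29, or 8.90%, against 9.20%.

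**Figure D3:**
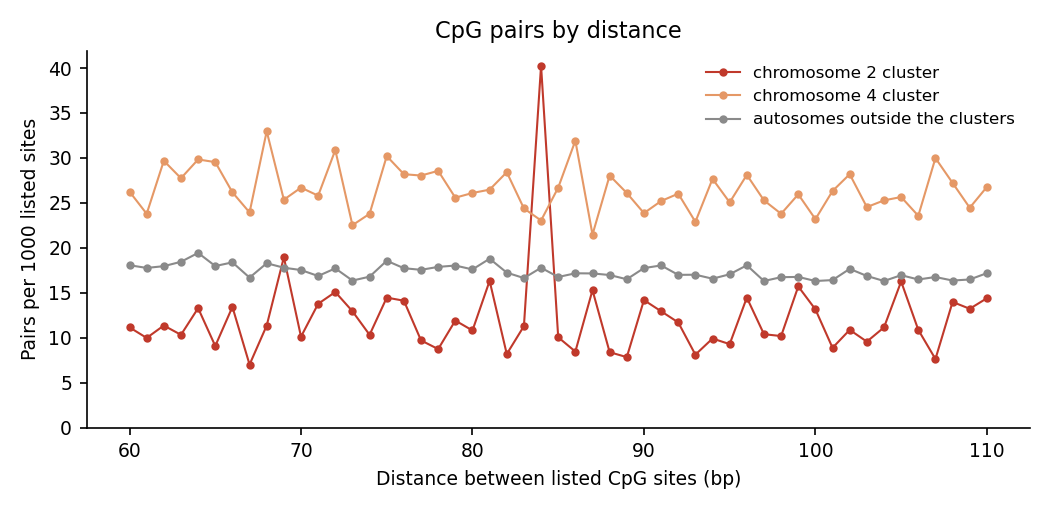
Pairs of listed CpG sites per 1000 sites (y axis) at each distance between 60 and 110 bp (x axis) in the chromosome 2 cluster (red), the chromosome 4 cluster (orange) and the autosomes outside (grey). The chromosome 2 cluster stands at 40.3 pairs per 1000 sites at 84 bp and lower at every other distance shown.

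Within both clusters together, 67 kept sites had a partner 84 bp away, 8 of them on chromosome 2. Their level was 3.77% in the SETD2 knockout line, 1.77% in DNMT3B1 cells and 3.56% in DNMT3A2 cells, and that of 1135 other cluster sites weighted to the same CpG density was 3.30%, 1.39% and 2.88%. The log2 ratio of DNMT3B1 over DNMT3A2 at these sites differed from that at the other sites by 0.03 (95% interval -0.95 to 1.02), and that of the SETD2 knockout over DNMT3B1 by -0.15 (-1.22 to 0.92). With 67 sites, differences of up to about these limits were not detectable. As 59 of the sites lay on chromosome 4, which showed no peak at 84 bp, the comparison hardly sampled the repeated spacing of chromosome 2.

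The next comparison asked whether the kept sites of the clusters were methylated like those of the flanks. Levels depend on CpG density, counted as listed sites within 500 bp on each side, and the kept cluster sites lay in sparser DNA (median density 9 CpGs per kb, flanks 15). Flank levels were therefore weighted over 6 density bins to the make-up of the cluster sites. All 3 lines were less methylated in the clusters. The level in the SETD2 knockout line was 4.72% in the clusters, against 6.00% in the flanks, a log2 ratio of -0.35 (95% interval over groups of CpGs within 500 bp, -0.49 to -0.20). In the DNMT3B1 line it was 2.16%, against 2.81% in the flanks, a log2 ratio of -0.38 (-0.60 to -0.16). In the DNMT3A2 line it was 5.09%, against 7.12% in the flanks, a log2 ratio of -0.48 (-0.64 to -0.33). These flanks were pooled over both chromosomes, and only density was matched. Chromosome 4 held 1385 of the 1510 cluster sites but 16847 of the 34098 flank sites. Matched flank levels were lower on chromosome 4 than on chromosome 2, at 6.50% against 8.90% in the DNMT3A2 line. The pooled ratios thus also hold a difference between chromosomes, and the ratios of each cluster to its own flanks follow.

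The chromosome 4 cluster, which held 1385 of the 1510 sites, carried this result. Its level was 4.72% in the SETD2 knockout line, against 5.59% in its own flanks, a log2 ratio of -0.25 (-0.40 to -0.09). In the DNMT3B1 line the level was 2.07%, against 2.58% in the flanks, and the log2 ratio -0.32 (-0.56 to -0.08). In the DNMT3A2 line it was 4.98%, against 6.50% in the flanks, with a log2 ratio of -0.39 (-0.55 to -0.22). Kept sites of this cluster were covered more deeply than those of the flanks, by 1.29 times in the SETD2 knockout and DNMT3B1 lines and by 1.39 times in the DNMT3A2 line, and with a coverage maximum of 2 times the median in place of 5 the log2 ratios were -0.23 (-0.48 to 0.02) in the SETD2 knockout line and -0.08 (-0.45 to 0.29) in the DNMT3B1 line. The part of the deeper coverage in the result was not tested. Without the first 500 kb of the cluster the log2 ratio in the SETD2 knockout line was -0.17, and without the second that in the DNMT3B1 line was -0.25, each with an interval that included 0.

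On chromosome 2, 125 sites in 87 groups of CpGs gave wide intervals. The level was 4.58% in the SETD2 knockout line, against 7.22% in the flanks, a log2 ratio of -0.66 (-1.29 to -0.02). In the DNMT3B1 line it was 3.47%, against 3.42% in the flanks, a log2 ratio of 0.02 (-0.86 to 0.90). In the DNMT3A2 line it was 6.77%, against 8.90% in the flanks, a log2 ratio of -0.39, with an interval of -0.79 to just below 0. Both intervals that excluded 0 did so narrowly: they included it under 11 of 17 alternatives in the SETD2 knockout line and 13 of 17 in the DNMT3A2 line.

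**Figure D4:**
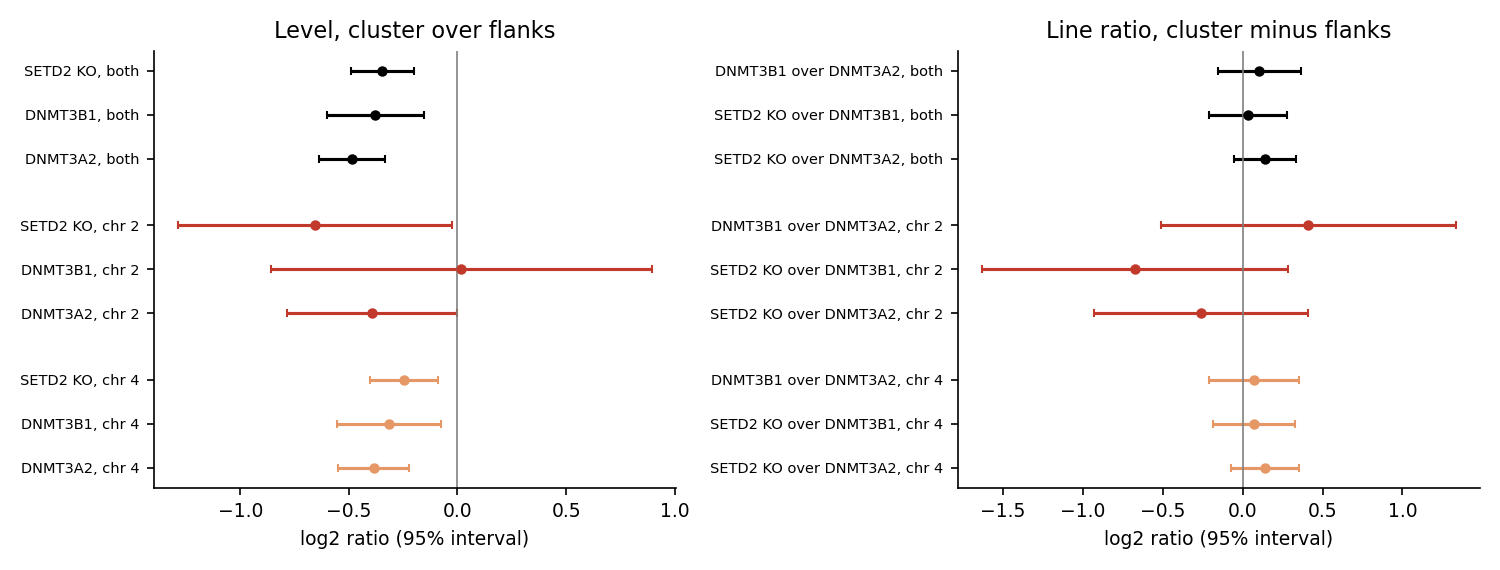
Left, log2 ratio of the level in the clusters over the density-matched level in the flanks for each line; right, log2 ratio of a pair of lines in the clusters minus that in the flanks, with 95% intervals, for both clusters (black), chromosome 2 (red) and chromosome 4 (orange). Both clusters together, against pooled flanks not matched for chromosome, lie below 0 in each line, between -0.48 and -0.35. Each interval of the line ratios includes 0.

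Density split the chromosome 4 cluster into parts that lay below and above the flanks. At 5 to 9 CpGs per kb, with 440 sites, the level was 5.19% in the SETD2 knockout line, against 7.18% in the flanks, 2.30% in the DNMT3B1 line, against 3.49% in the flanks, and 5.52% in the DNMT3A2 line, against 8.92% in the flanks. At 1 to 4 CpGs per kb, with 282 sites, the SETD2 knockout level of 5.29% (exact interval 4.78% to 5.84%) was below the 6.28% of the flanks, though their interval of 5.78% to 6.81% overlapped it. In the same bin the DNMT3B1 and DNMT3A2 levels of 2.49% and 5.44% lay within the exact intervals of the flanks, whose levels were 2.62% and 5.69%. At 10 to 19 CpGs per kb, with 247 sites, each line was lower in the cluster. The levels were 4.84% (SETD2 knockout), 2.20% (DNMT3B1) and 7.24% (DNMT3A2), against 6.72%, 3.25% and 8.64% in the flanks. At 20 to 39 CpGs per kb the SETD2 knockout level was 6.06% (exact interval 5.38% to 6.80%). It was above the 5.13% of the flanks (4.96% to 5.29%). The DNMT3A2 level of 4.53% (3.86% to 5.28%) was below their 6.26% (6.06% to 6.48%). The DNMT3B1 level of 2.23% lay within the flanks' interval of 2.22% to 2.49%. At 40 to 59 CpGs per kb, with 54 sites, the DNMT3A2 level of 2.65% (1.69% to 3.95%) was above their 0.746% (0.583% to 0.940%). The DNMT3B1 level of 1.09% (0.472% to 2.14%) was also above their 0.209% (0.128% to 0.322%). The SETD2 knockout level of 0.688% lay within the flanks' interval of 0.612% to 0.906%. These exact intervals hold counting error alone and leave out the variation between neighbouring CpGs, which share reads. They can be too narrow, so they do not settle differences within single bins.

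At 60 or more CpGs per kb, the class of CpG islands, levels were low everywhere and higher in the cluster. The cluster held 16 such stretches with 1449 listed sites, 10.8% of all its sites, and 160 of these sites were kept in 11 of the stretches. The level in the SETD2 knockout line was 1.86% (67 of 3595 reads), against 0.476% in the dense sites of the flanks, a log2 ratio of 1.97 (1.21 to 2.73). In the DNMT3B1 line it was 0.665% (16 of 2405 reads), against 0.0711% in the flanks, a log2 ratio of 3.23 (1.48 to 4.97). In the DNMT3A2 line it was 0.514% (14 of 2726 reads), against 0.213% in the flanks, a log2 ratio of 1.27 (-0.25 to 2.79). Dense sites of the autosomes outside the clusters had 0.462%, 0.153% and 0.210% in the same order of lines. The DNMT3B1 level of the flanks rested on 12 of 16871 reads and was below that of the autosomes. The size of the DNMT3B1 ratio thus depended on the reference. The 160 sites formed 18 groups of CpGs, and this density class was singled out after its values were seen. The 16 methylated DNMT3B1 reads came from 3 of the 11 stretches, and without the one at chr4:145426570-145427367, which held 9 of them, the DNMT3B1 log2 ratio was 2.31 (0.38 to 4.23). Over 12 alternatives it lay between 2.31 and 3.52 and that of the SETD2 knockout line between 1.80 and 2.07, each with intervals above 0. The DNMT3A2 log2 ratio lay between 0.79 and 1.57, with an interval that included 0 in 10 of the 12; it excluded 0 without that same stretch (0.14 to 2.99) and without the one at chr4:146561431-146562062 (0.06 to 2.97).

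Single stretches differed between the lines. In chr4:145426570-145427367 the SETD2 knockout line had 18 methylated of 630 reads and the DNMT3B1 line 9 of 414, while the DNMT3A2 line had 0 of 507. In chr4:146561431-146562062 the SETD2 knockout line had 17 of 689 methylated, the DNMT3B1 line 0 of 400 and the DNMT3A2 line 0 of 423. In chr4:146034565-146035477 the levels were close, 1.27% in the SETD2 knockout line, 1.25% in DNMT3B1 cells and 1.10% in DNMT3A2 cells. The chromosome 2 cluster had no listed site in this class.

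**Figure D5:**
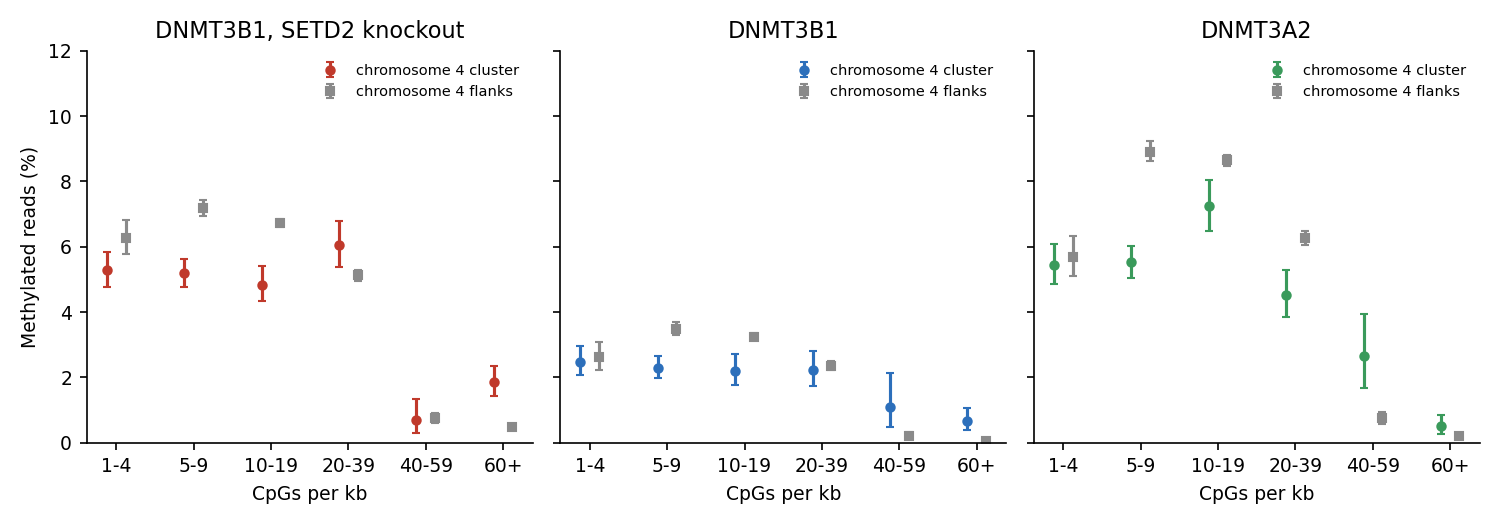
Methylated reads (%) by CpG density (CpGs per kb) in the chromosome 4 cluster (coloured circles) and its flanks (grey squares) for each line, with exact 95% binomial intervals. Cluster levels lie below the flanks at 5 to 9 CpGs per kb in each line and above them at 60 or more CpGs per kb.

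Few sites of the clusters were strongly methylated. Of the 1510 kept sites, 9 in the SETD2 knockout line, 4 in DNMT3B1 cells and 10 in DNMT3A2 cells had at least 50% of their reads methylated, against 359, 207 and 835 of the 34098 flank sites. No methylated read was seen at 63.0%, 83.2% and 65.8% of cluster sites in the same order of lines, against 62.8%, 83.4% and 60.8% of flank sites. These shares were not matched for density or depth.

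Set against the whole genome, the 4 windows of 500 kb on chromosome 4 with at least 100 kept sites lay below the level expected from their CpG density in each line. So did the median window outside the clusters, with log2 ratios to the expected level of -0.037 (SETD2 knockout), -0.068 (DNMT3B1) and -0.134 (DNMT3A2). Shares of lower windows were taken over the 4672 such windows on the autosomes outside the clusters and these 4 together. In the SETD2 knockout line 4.73%, 9.20%, 4.19% and 40.01% were lower, from left to right along the cluster. In the DNMT3B1 line 25.9%, 8.77%, 50.7% and 24.0% were lower, and in the DNMT3A2 line 38.8%, 45.9%, 14.6% and 29.5%.

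The third comparison asked whether the ratio between lines differed in the clusters. It did not beyond the intervals. The log2 ratio of DNMT3B1 over DNMT3A2 in both clusters exceeded that in the flanks by 0.11 (95% interval -0.16 to 0.37), that of the SETD2 knockout over DNMT3B1 by 0.03 (-0.21 to 0.27), and that of the SETD2 knockout over DNMT3A2 by 0.14 (-0.06 to 0.33). These ratios share lines and are not independent of each other. The intervals leave room for a shift of either ratio by up to 1.29 times for DNMT3B1 over DNMT3A2 and 1.21 times for the SETD2 knockout over DNMT3B1.

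The chromosome 4 cluster gave 0.07 (-0.21 to 0.35), 0.07 (-0.19 to 0.33) and 0.14 (-0.07 to 0.35) in the same order. The chromosome 2 cluster gave 0.41 (-0.51 to 1.34), -0.67 (-1.63 to 0.29) and -0.26 (-0.93 to 0.41). The difference between the clusters was 0.34 (-0.62 to 1.31) for DNMT3B1 over DNMT3A2 and -0.75 (-1.74 to 0.25) for the SETD2 knockout over DNMT3B1, so each interval included 0. In the clusters themselves, on chromosome 4, the DNMT3B1 level was 0.417 times the DNMT3A2 level, against 0.397 times in the flanks, and the SETD2 knockout level was 2.27 times the DNMT3B1 level, against 2.16 times in the flanks.

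Windows of 100 kb showed how the DNMT3B1 over DNMT3A2 ratio varied along the chromosome 4 cluster. There were 7 windows with at least 100 kept sites, and none on chromosome 2. Ratios are given relative to all kept autosomal sites. The highest was at chr4:146800001-146900000, with 241 sites, where DNMT3B1 cells had 3.14% methylation (110 of 3502 reads) and DNMT3A2 cells 4.52% (184 of 4069), a relative log2 ratio of 0.88 (0.31 to 1.44). The window at chr4:145100001-145200000 followed with 0.33 (-0.52 to 1.19) and that at chr4:146600001-146700000 with 0.26 (-0.55 to 1.07).

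The lowest was at chr4:145700001-145800000, where DNMT3B1 cells had 1.52% (36 of 2373 reads) and DNMT3A2 cells 6.22% (161 of 2588), a relative log2 ratio of -0.63 (-1.44 to 0.17). The windows at chr4:146900001-147000000 and chr4:145000001-145100000 had -0.47 (-1.24 to 0.30) and -0.02 (-0.79 to 0.75). Of the 7 windows, 1 had an interval above 0 and 0 had one below, while over 15528 autosomal windows the shares were 8.42% and 7.39%. With 7 windows these counts show nothing particular to the cluster. The SETD2 knockout level in the highest window was 5.58% and in the lowest 5.19%, so this line differed less between these windows than the DNMT3B1 line did, a difference that was not tested.

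Tiles of 10 kb with at least 20 kept sites were compared by the same relative ratio, and a tile was called at 2-fold or more with an interval that excluded 0. For DNMT3B1 over DNMT3A2 the clusters held 39 such tiles, 37 of them on chromosome 4. Of the 39, 2 were called higher, against 6.08% of 160054 autosomal tiles, and 1 lower, against 5.35%. Their median relative log2 ratio was -0.06, against -0.02 over all tiles. The shares are near the background and show nothing particular to the clusters.

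The tile with the lowest ratio, chr4:145710001-145720000, had 0.564% in the DNMT3B1 line (3 of 532 reads), 9.09% in the DNMT3A2 line (61 of 671) and 3.32% in the SETD2 knockout line, a relative log2 ratio of -2.62 (-3.82 to -1.42). The next lowest, chr4:146940001-146950000 and chr4:146970001-146980000, had -1.72 (-3.67 to 0.24) and -1.32 (-2.65 to 0.01). The 3 highest were chr4:145420001-145430000 with 3.16 (-1.49 to 7.80), chr4:145160001-145170000 with 2.02 (-0.32 to 4.37) and chr4:146810001-146820000 with 1.61 (-1.86 to 5.09). They rested on 9, 13 and 5 methylated DNMT3B1 reads and on 3, 10 and 6 methylated DNMT3A2 reads, and none of these 3 was called.

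For the SETD2 knockout over DNMT3B1 the clusters held 31 tiles, 30 of them on chromosome 4. Of the 31, 5 were called higher, against 6.41% of 120215 autosomal tiles, and 1 lower, against 4.05%. The median relative log2 ratio was 0.08, against 0.10 over all tiles. The 5 higher tiles included 3 that adjoin each other between 145700001 and 145730000 on chromosome 4. In the middle one of these, chr4:145710001-145720000, which was also the tile with the highest ratio, the SETD2 knockout line had 3.45% (31 of 898 reads) and the DNMT3B1 line 0.337% (2 of 594), a relative log2 ratio of 2.26 (0.82 to 3.71). This is the tile with the lowest DNMT3B1 over DNMT3A2 ratio, and both ratios draw on the same DNMT3B1 library. Each ratio used the sites kept in its own pair of lines, so the levels of a line differ slightly between them.

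The next highest were chr4:146910001-146920000 with 1.80 (-1.56 to 5.16), which was not called, and chr4:146970001-146980000 with 1.78 (0.37 to 3.18), where the SETD2 knockout line had 34 of 748 reads methylated and the DNMT3B1 line 3 of 484. The lowest was chr4:146880001-146890000, where the level was 2.32% in the SETD2 knockout line (13 of 561 reads), 5.66% in the DNMT3B1 line (24 of 424) and 5.81% in the DNMT3A2 line, a relative log2 ratio of -2.38 (-3.72 to -1.05). The tiles at chr4:145050001-145060000 and chr4:146810001-146820000 had -1.67 (-4.46 to 1.11) and -1.43 (-4.83 to 1.97).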

How the data were processed

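The assay was whole-genome bisulfite sequencing, and titles assigned samples to lines. For the DNMT3B1 and DNMT3A2 lines the authors deposited, per the file headers, a count of all reads and a count of methylated reads at each CpG site, with the 2 runs of a line taken as pooled since the headers name lines alone. The SETD2 knockout line came, per the file headers, with its count of reads, its count of methylated reads and the fraction methylated, which was within 1e-09 of their ratio at each of 9293499 sites. Its 2 deposited sets of values were identical and were used once; whether they hold 1 run or both pooled is not known. Coordinates are those of mm9, per the submitters' processing notes. Not given in the sources used here are the aligner, the caller and how duplicate or multiply fitting reads were handled.

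Levels are methylated reads over all reads. Cytosines left unconverted count as methylated in them, and no conversion rate was used here. Sites were kept at 5 reads or more and at most 5 times each line's median coverage of 16, 8 and 9 reads (SETD2 knockout, DNMT3B1, DNMT3A2). Exact intervals are Clopper-Pearson and cover counting error. Levels were standardised over CpG density bins of 1 to 4, 5 to 9, 10 to 19, 20 to 39, 40 to 59 and 60 or more CpGs per kb, with 95% intervals from the linearised variance over 500 bp groups, tested on simulated data. Where a line had 0 methylated reads in a tile, 3 were assumed, with the counting variance of 3. Named windows are the 3 highest and 3 lowest of 100 kb with at least 100 sites by DNMT3B1 over DNMT3A2; named tiles are the 3 highest and 3 lowest by each ratio. The regions, lists and tests were chosen with earlier results of these data known. Alternatives changed the coverage limits, density matching, flanks, background, tile size and call rule, and left out 500 kb at a time. Gene models of mm9 and its sequence were not used here. The scripts ran under Python 3.11.15 with scipy 1.17.1, pandas 2.3.3 and numpy 2.4.6; figures were drawn with matplotlib 3.10.9.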

Additional observations from a re-analysis of the deposited data

Results flagged for a closer look

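Reads at sites over a coverage maximum entered the alternatives with no maximum but not the comparisons above. The chromosome 4 cluster had 298 such sites, 2.22% of its listed sites against 0.0995% over the autosomes outside the clusters, and they held 36.6% of the cluster's SETD2 knockout reads, 33.5% of its DNMT3B1 reads and 32.3% of its DNMT3A2 reads. Their level was 6.03% in the SETD2 knockout line (exact 95% interval 5.72% to 6.35%), 2.35% in the DNMT3B1 line (2.13% to 2.59%) and 6.17% in the DNMT3A2 line (5.82% to 6.53%). In the flanks, 57 such sites had levels of 3.65%, 2.15% and 4.28% in the same order, and over 19690 such sites of the autosomes outside the clusters the levels were 5.31%, 2.11% and 7.99%. The DNMT3A2 level of the cluster thus lay above that of the flanks and below that of the autosomes. Of the 298 sites, 1.34% had a repeated CpG spacing pattern. The chromosome 2 cluster had 0 sites over a maximum.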

How the results depend on the processing

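Depth limits the clusters to 5.41% of their sites; with a minimum of 1 read, a minimum of 10 reads or no maximum the share was 6.67%, 3.34% or 6.47%. The lower level of both clusters held its direction and its interval below 0 in 21 of 21 alternatives in the SETD2 knockout line (-0.52 to -0.27), 21 of 21 in the DNMT3A2 line (-0.65 to -0.34) and 20 of 21 in the DNMT3B1 line, whose log2 ratio with a maximum of 2 times the median was -0.21 (-0.55 to 0.12). On chromosome 2 the DNMT3B1 level ratio changed sign to -0.093 and -0.17 with minima of 1 and 10 reads, -0.32 with that maximum, -0.026 with finer density bins, -0.023 with density within 250 bp, -0.28 with the mean of single-site fractions and between -0.43 and 0.12 when 500 kb was left out.

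The ratio of the SETD2 knockout over DNMT3A2 excluded 0 in both clusters with no coverage maximum (0.17, 0.01 to 0.32) and with no density matching (0.26 in both clusters, 0.23 on chromosome 4). That of DNMT3B1 over DNMT3A2 on chromosome 2 was 0.45 (0.05 to 0.84) where only these lines needed 1 read, a setting chosen after seeing the data. Signs changed, with intervals that included 0, as follows. With a maximum of 2 times the median, the SETD2 knockout over DNMT3B1 gave -0.14 in both clusters and -0.15 on chromosome 4, and DNMT3B1 over DNMT3A2 gave -0.015 on chromosome 2. With flanks of 1 Mb, DNMT3B1 over DNMT3A2 gave -0.029 in both clusters and -0.074 on chromosome 4; with the left flank alone, it gave -0.13 and the SETD2 knockout over DNMT3A2 -0.050 on chromosome 4. A minimum of 1 read gave the SETD2 knockout over DNMT3A2 0.21 on chromosome 2, and density bins within each chromosome gave the SETD2 knockout over DNMT3B1 -0.0067 in both clusters.

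Leaving out 500 kb at a time gave these ranges. DNMT3B1 over DNMT3A2 lay between 0.05 and 0.21 in both clusters, 0.21 and 0.47 on chromosome 2 and -0.017 and 0.17 on chromosome 4. The SETD2 knockout over DNMT3B1 lay between -0.14 and 0.11, -0.88 and -0.19, and -0.072 and 0.17 in the same order, and the SETD2 knockout over DNMT3A2 between -0.087 and 0.23, -0.41 and 0.026, and -0.089 and 0.25. The highest values of the last ratio in both clusters and on chromosome 4 came without the first 500 kb of the chromosome 4 cluster, with intervals above 0, and the lowest without its last 500 kb, which held 619 of the 1510 kept sites. On chromosome 2 the parts without a kept site gave no value.

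At sites with an 84 bp partner, DNMT3B1 over DNMT3A2 lay between -0.54 and 0.86 over 8 alternatives, 5 of them above 0 and each with an interval that included 0. It was 0.86 on chromosome 2 alone, -0.46 with no coverage maximum, -0.20 with partners at 84 bp or 2 times that distance and -0.54 on chromosome 4 alone, where the SETD2 knockout over DNMT3B1 was 0.23. Tile counts were small and moved with several choices. They are given without the share of all autosomal tiles called under the same setting, so they do not compare the clusters with the background. For DNMT3B1 over DNMT3A2, 6 were higher and 5 lower with a minimum of 1 read, 0 higher with a minimum of 10 reads, 1 higher and 0 lower in 50 kb tiles, 4 higher and 2 lower with a 10-site minimum, and 9 higher and 8 lower by 2-fold alone. For the SETD2 knockout over DNMT3B1, 2 were higher and 0 lower in 50 kb tiles, 4 lower with a 10-site minimum, and 8 higher and 3 lower by 2-fold alone. The cause of these changes was not tested. No paired analysis was possible because the runs of a line came pooled, so no run could be left out either.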
